A study of Mus musculus with 12 samples.

Results

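Calcium handling for egg activation was followed through 9 transcripts, Itpr1, Atp2a2, Atp2b1, Trpm7, Trpv3, Cacna1h, Stim1, Orai1 and Camk2g. The genes were chosen by name for their roles and were looked up by their gene identifiers. All 9 were found among the 55573 genes counted in each of 12 libraries of poly(A) RNA from mouse GV oocytes.

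A sperm factor, a phospholipase C, sets off repeated rises of calcium in the egg, and each rise is released from the endoplasmic reticulum through the inositol trisphosphate receptor. Pumps return calcium to the reticulum or expel it, and channels of the plasma membrane refill the store between rises. A calmodulin-dependent kinase then reads the signal and releases the egg from its meiotic arrest, and much of this machinery is made from mRNA that the oocyte stored while growing.

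The oocytes were fully grown, with an intact nuclear envelope (germinal vesicle, GV), and came from 1 healthy B6D2F1 female aged 12 weeks. They were collected in M2 medium with milrinone, which holds them in meiotic arrest, and no group received another treatment. Of 8 oocytes, 6 were used whole, with 2 each amplified for 10, 14 and 18 PCR cycles, and the lysates of the other 2 were diluted to 1/2, 1/4 and 1/8 of an oocyte and amplified for 18 cycles, with 2 libraries per fraction. The same amount of ERCC spike-in RNA was added to every library, and the submitters made these libraries to test normalization by ERCC.

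Replicates were oocytes, or fractions of oocytes, of 1 female, so the p-values below measure the spread between these libraries and not between animals. The counts assigned to genes were 11597144 and 9189672 in the oocytes at 10 cycles, against 12349577 and 13806199 at 14 cycles and only 3017069 and 1706478 at 18 cycles. The fractions had 4024670 and 3598549 (1/2), 4027907 and 5049518 (1/4), and 11404262 and 1702062 (1/8). Among the whole oocytes, cycle number therefore coincided with depth, with the individual oocyte and with its preparation, and these cannot be told apart. The fractions, all at 18 cycles, differed in depth among themselves. They came from other oocytes than the whole libraries at 18 cycles. In comparisons of fractions with whole oocytes, input therefore coincided with the individual oocyte, and these cannot be told apart. All fractions came from the lysates of the same 2 oocytes, but the tests treated the 8 libraries at 18 cycles as independent.

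The oocyte identity of the libraries was checked with 12 oocyte markers, all of which had at least 10 counts in every library. Their summed abundance was 30410 and 25980 CPM (counts scaled to the library's total on genes) at 10 cycles, 29540 and 30290 at 14 cycles, but 8192 and 6719 at 18 cycles. In the fractions it was 8680 and 9247 (1/2), 14490 and 15030 (1/4), and 22340 and 19910 (1/8). Over the 12 libraries, the marker Gdf9 ranged from 1579 to 5874 CPM and the marker Padi6 from 957 to 6870 CPM. The marker sum was thus low in the same libraries in which several calcium genes departed from their level at 10 cycles, and its part in those results was not tested.

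All 15 markers of granulosa and cumulus cells, which surround the oocyte in the follicle, had a count in at least 1 library, and 2 of them had at least 10 counts in every library. Their sum was highest in replicate 1 at 10 cycles (240 CPM) and replicate 2 at 14 cycles (188 CPM), against 88.4 and 117 CPM in the other replicates at 10 and 14 cycles. At 18 cycles it was 77.9 and 31.6 CPM, and in the fractions it was 35.0 and 33.6 (1/2), 57.6 and 62.0 (1/4), and 81.9 and 79.9 CPM (1/8). Nr5a2 lay between 14.5 and 46.6 CPM, and Cyp11a1 reached 66.6 CPM in replicate 1 at 10 cycles. Inha, which encodes the inhibin alpha subunit of granulosa cells, had 396 and 441 counts in the 2 libraries with the highest sums, and 3 and 45 in their partners. Not all markers had this order. At 14 cycles Fshr, Kitl, Lhcgr, Has2 and Ptgs2 had 13, 189, 11, 14 and 37 counts in replicate 1. In replicate 2 they had 4, 158, 3, 8 and 4, whereas the other markers had more counts there. At 10 cycles Kitl had 127 and 115 counts, Cyp19a1 319 and 300, and Has2 4 and 5. Scaled to the library's total, as CPM, each of these markers was higher in replicate 2. The blood marker Hba-a1 and the sperm markers Plcz1 and Tnp1 were at 0 in every library, Hbb-bs and Ptprc did not exceed 1 count, and Prm1 had 1 count in 1 library. The sperm marker Prm2, however, had from 1 to 53 counts in each library, or 0.556 to 10.6 CPM.

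Levels of different genes were compared per kilobase of merged exons, in the 4 whole oocytes at 10 and 14 cycles. Camk2g, the kinase, was the most abundant of the 9 transcripts at 83.1 ± 8.52 CPM per kb (SD, n = 4), followed by Orai1 at 68.7 ± 9.42 and Atp2a2 at 61.0 ± 11.2. Atp2b1 (14.4 ± 1.56), Trpm7 (11.5 ± 2.94), Itpr1 (7.77 ± 0.258) and Cacna1h (6.25 ± 1.43) formed the middle of the order. Trpv3 had 2.61 ± 0.929 and Stim1 had 0.681 ± 0.309 CPM per kb. The libraries of Camk2g and Orai1, of Orai1 and Atp2a2, of Atp2b1 and Trpm7, and of Itpr1 and Cacna1h overlapped in range, while the other 4 neighbouring pairs did not overlap. All genes were measured in the same 4 libraries, and Camk2g exceeded Orai1 in each of the 4, Orai1 exceeded Atp2a2 in 3, Atp2b1 exceeded Trpm7 in 2 and Itpr1 exceeded Cacna1h in 3. The separation of neighbours depended on the length used. Per kilobase of the longest annotated transcript the order of the means was the same, but the overlapping pairs were Orai1 and Atp2a2, Trpm7 and Itpr1, and Trpv3 and Stim1. Among 17367 protein-coding genes, Orai1 stood at percentile 96.1, Itpr1 at 69.6 and Stim1 at 36.9.

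**Figure D1:**
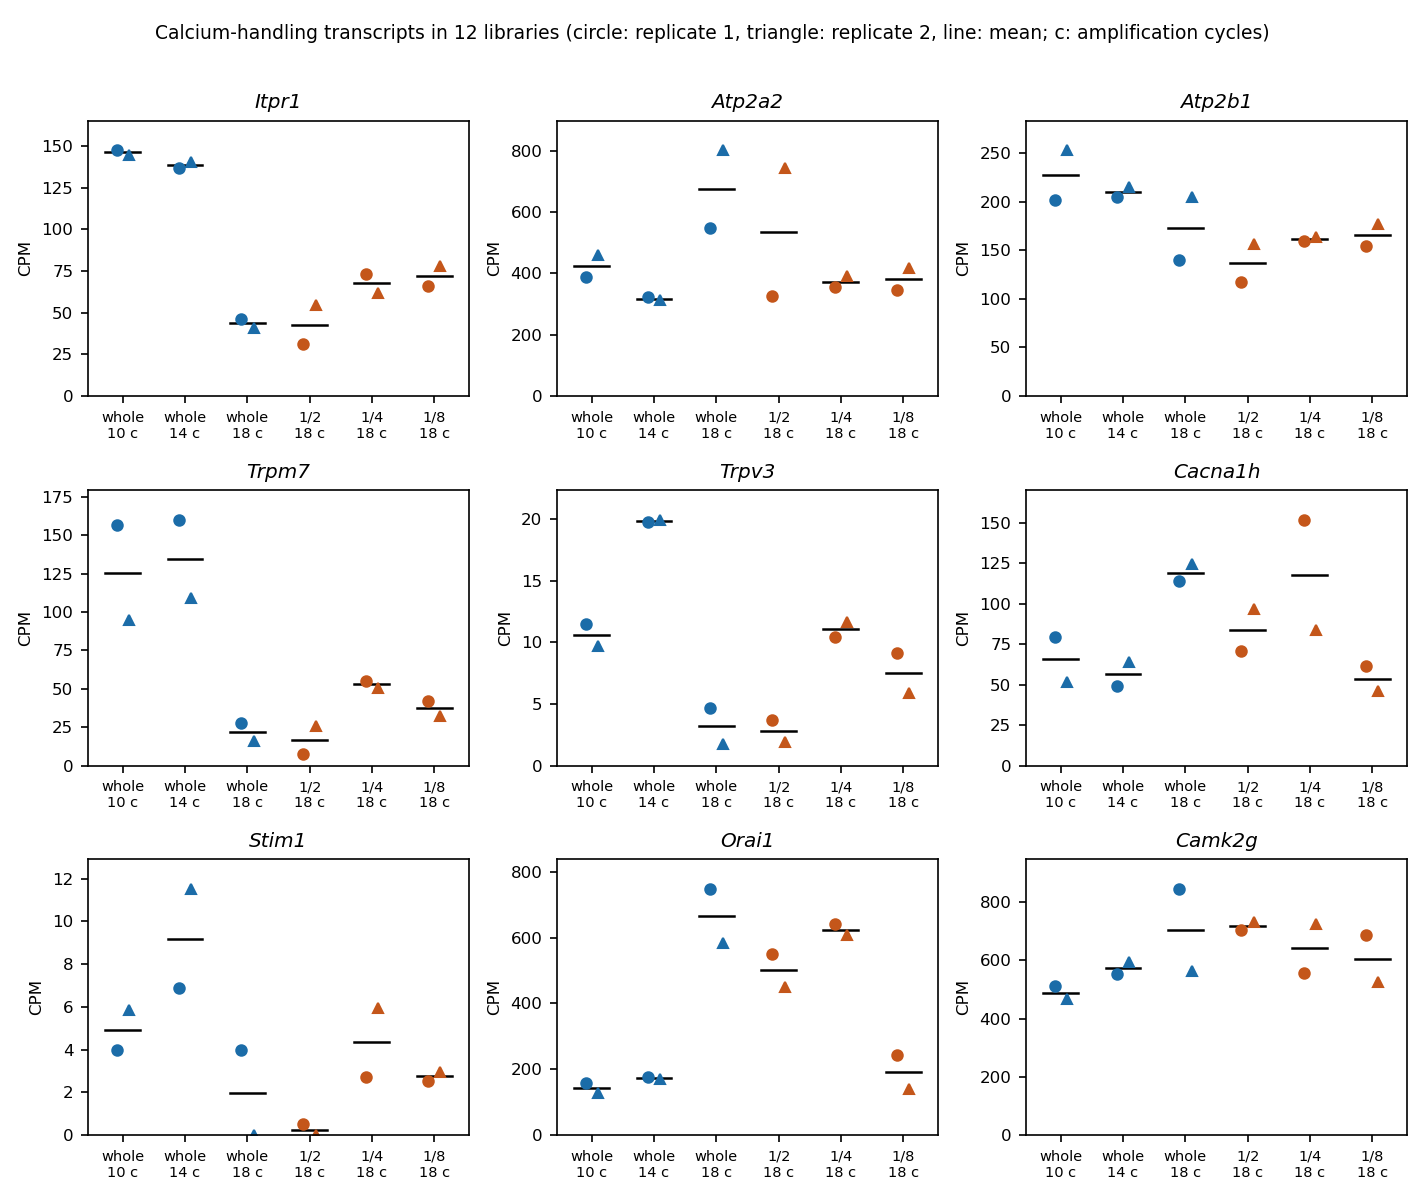
Abundance of each of the 9 transcripts in CPM (vertical axes, each starting at 0) in whole oocytes at 10, 14 and 18 cycles (blue) and in 1/2, 1/4 and 1/8 of an oocyte at 18 cycles (orange), with a circle for replicate 1, a triangle for replicate 2 and a line for their mean. Orai1 lay between 127 and 175 CPM in the oocytes at 10 and 14 cycles and between 139 and 748 CPM in the libraries at 18 cycles, and Itpr1 and Trpm7 were lower on this scale in all 8 libraries at 18 cycles.

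Abundance was tested with edgeR's quasi-likelihood test at an adjusted p under 0.01 over all genes that reached 5 counts in 2 or more of the libraries fitted together, and all 9 calcium genes passed this filter in both fits. Size factors came from the median ratio over all genes, which measures a gene relative to the others, and hold for every value and call below unless ERCC size factors are named. Comparisons of 18 with 10 and with 14 cycles share the libraries at 18 cycles, and the comparisons of fractions with whole oocytes share those same 2 libraries.

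Between 14 and 10 cycles, 0 of the 9 genes passed the threshold in edgeR, as did 0.0% of the 17532 genes tested. At an unadjusted p under 0.05 there were 513 genes, with Trpv3 as the only calcium gene among them, and DESeq2 also called 0 of the 9. The median log2 fold change of the 9 genes was 0.08, and that of all genes was 0.01.

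At 18 cycles the calcium genes moved in both directions. Against 10 cycles, Orai1 and Cacna1h rose and Itpr1 and Trpm7 fell, which is 2 higher and 2 lower of 9 where 12.3% of all genes were higher and 10.8% lower. Against 14 cycles the counts were 3 higher (Orai1, Cacna1h and Atp2a2) and 3 lower (Itpr1, Trpm7 and Trpv3), beside 12.5% and 10.7% of all genes. The median log2 fold changes of the 9 genes were -0.13 and 0.03, and those of all genes were -0.29 in both comparisons. With ERCC size factors the median of all genes moved to 1.96 and 1.97, with 8348 genes higher and 0 lower against 10 cycles in place of 2155 and 1898, and 8398 higher and 2 lower against 14 cycles in place of 2199 and 1873. On that scale 5 of the 9 genes (Orai1, Cacna1h, Atp2a2, Atp2b1 and Camk2g) were higher in both comparisons and 0 were lower, so the falls reported here are falls relative to other transcripts.

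When the input was reduced at 18 cycles and size factors came from the median ratio, 0 of 9 genes passed in 1/2 and 0 in 1/4 of an oocyte, beside 0.122% and 0.46% of all genes. The number of calcium genes with an unadjusted p under 0.05 was 0 and 3, beside 1943 and 2331 of the 14788 genes tested, and DESeq2 called 0 in both. In 1/8, Orai1 and Cacna1h were lower than in whole oocytes and 0 genes were higher, beside 8.69% of all genes lower and 7.06% higher. The medians of the 9 genes were -0.40, -0.15 and -0.27 in 1/2, 1/4 and 1/8, and those of all genes were -0.01, 0.05 and 0.03. Between 1/4 and 1/2, 0 of the 9 genes and 0.0% of all genes passed, with 3 calcium genes and 1842 of 14788 genes at an unadjusted p under 0.05, and 0 of the 9 called by DESeq2. Between 1/8 and 1/4, Orai1 was lower (3.42% of all genes lower), and 0 calcium genes were higher (1.54% of all genes higher).

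Itpr1 encodes the type 1 inositol trisphosphate receptor, the channel that releases calcium from the endoplasmic reticulum (ENSMUSG00000030102, chromosome 6 from 108213096 to 108551109, plus strand, GRCm38). It had 148 and 145 CPM at 10 cycles, 137 and 141 at 14 cycles, against 46.1 and 41.0 at 18 cycles. In the fractions it had 31.1 and 54.5 CPM (1/2), 73.2 and 61.8 (1/4), and 65.9 and 78.1 (1/8). The 4 oocytes at 10 and 14 cycles lay close together and above every library at 18 cycles, whole or fractional. The log2 fold change of 18 against 10 cycles was -1.48 (standard error 0.19, edgeR adjusted p = 0.000305, n = 2 per group), and that against 14 cycles was -1.37 (0.19, adjusted p = 0.000433). Itpr1 passed in all 6 fits that left out 1 oocyte, for either comparison. With ERCC size factors the sign turned, to 0.76 against 10 cycles (adjusted p = 0.131) and 0.90 against 14 cycles (adjusted p = 0.0758), both below the median of all genes on that scale.

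With median ratio size factors no fraction passed in Itpr1 by the edgeR test against whole oocytes, with log2 fold changes of -0.07 (standard error 0.34), 0.50 (0.34) and 0.52 (0.34) in 1/2, 1/4 and 1/8. Itpr1 was not the most abundant receptor of its family per kilobase. Itpr2 had 21.8 ± 2.68 CPM per kb and Itpr3 0.741 ± 0.0924 in the 4 oocytes at 10 and 14 cycles (SD), and Itpr1 held 25.8 ± 2.39% of the summed family level. Its share over the 12 libraries ran from 15.8 to 41.1%, with the highest value in a whole oocyte at 18 cycles and the lowest in 1/8. Itpr2 itself fell at 18 against 10 cycles by 2.21 on the log2 scale (standard error 0.24, edgeR adjusted p = 0.000123), and was higher in 1/8 than in whole oocytes by 2.21 (0.30, adjusted p = 2.65e-05).

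Atp2a2 encodes SERCA2, the pump that returns calcium to the endoplasmic reticulum (ENSMUSG00000029467, chromosome 5, minus strand). Its abundance was 388 and 461 CPM at 10 cycles, 322 and 313 at 14 cycles, then 548 and 803 at 18 cycles. The oocytes at 18 cycles were the highest of the whole oocytes and did not overlap the others, but differed from each other by more than the oocytes at 10 or 14 cycles did. Against 14 cycles the log2 fold change was 1.40 (standard error 0.26, edgeR adjusted p = 0.00189, n = 2), and the call was lost without replicate 1 (adjusted p = 0.0181) or replicate 2 (adjusted p = 0.0227) at 14 cycles. Against 10 cycles it was 0.95 (0.26) and missed the threshold in edgeR (adjusted p = 0.0143), although it was called by DESeq2 (adjusted p = 0.00193), with a replicate block (adjusted p = 0.0059) and without the filter (adjusted p = 0.000176).

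The fractions had 327 and 746 CPM of Atp2a2 in 1/2, 356 and 390 in 1/4, and 346 and 419 in 1/8. The 2 libraries of 1/2 were the lowest and the highest of the 6 fractions. The log2 fold changes against whole oocytes were -0.40 (standard error 0.33), -1.01 (0.33) and -1.04 (0.33), and none passed in edgeR (adjusted p = 0.653, 0.129 and 0.023). In 1/8, however, Atp2a2 passed in edgeR with a replicate block (adjusted p = 0.00987) and without the filter on low counts (adjusted p = 0.00394). Atp2a2 was nearly the only SERCA transcript, since Atp2a1 and Atp2a3 did not exceed 4 counts in any library and the Atp2a2 share of the family was at least 99.7%.

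Atp2b1 encodes PMCA1, a pump that expels calcium across the plasma membrane (ENSMUSG00000019943, chromosome 10, plus strand). It had the smallest fitted changes of the 9 genes at 18 cycles, with 202 and 253 CPM at 10 cycles, 205 and 216 at 14 cycles, then 140 and 205 at 18 cycles. The groups overlapped, and the log2 fold changes at 18 cycles were -0.13 (standard error 0.26) against 10 and 0.03 (0.26) against 14 cycles. In the fractions it ranged from 118 to 177 CPM, again with no call, and the log2 fold changes against whole oocytes were -0.38, -0.24 and -0.27 (standard error 0.29 each). With ERCC size factors its change at 18 against 10 cycles was 2.00 (edgeR adjusted p = 0.000199), close to the median of all genes on that scale. Atp2b1 held 73.6 ± 1.98% of the PMCA level per kilobase in the 4 oocytes at 10 and 14 cycles, with Atp2b3 (3.56 ± 0.670 CPM per kb) and Atp2b4 (1.57 ± 0.636) next.

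Trpm7 encodes a channel of the plasma membrane that carries magnesium and calcium and is joined to a kinase (ENSMUSG00000027365, chromosome 2 from 126791565 to 126876230, minus strand). It was measured at 157 and 94.6 CPM at 10 cycles, 160 and 109 at 14 cycles, against 27.5 and 15.8 at 18 cycles. The fractions had 7.45 and 25.6 CPM (1/2), 55.4 and 50.7 (1/4), and 42.1 and 32.3 (1/8). Both oocytes at 18 cycles were far below the 4 at 10 and 14 cycles, and all fractions lay below those 4 too. Trpm7 had the largest fitted fall of the 9 genes at 18 against 10 cycles, -2.24 on the log2 scale (standard error 0.33, edgeR adjusted p = 0.000534, n = 2), and fell by 2.32 (0.33, adjusted p = 0.000433) against 14 cycles. The call was kept in each of the 6 fits that left out 1 oocyte, for both comparisons. With ERCC size factors the values were 0.10 (adjusted p = 0.873) and 0.00 (adjusted p = 0.995), well below the median of all genes on that scale.

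In the fractions, the log2 fold changes of Trpm7 against whole oocytes were -0.46 (standard error 0.46), 1.15 (0.44) and 0.59 (0.45), and none passed in edgeR with median ratio size factors. The difference between 1/4 and 1/2 was 1.61 (0.44) without overlap of the libraries, at an adjusted p of 0.147. The libraries of 1/2 held 30 and 92 counts of Trpm7, against 223 and 256 in 1/4. Its relative Trpm6 had 1.57 ± 0.577 CPM per kb, and Trpm7 held 87.3 ± 6.56% of their sum in the oocytes at 10 and 14 cycles.

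Trpv3 encodes a channel of the vanilloid family that conducts calcium (ENSMUSG00000043029, chromosome 11, plus strand). It was rare, with 11.5 and 9.68 CPM at 10 cycles, 19.8 and 19.99 at 14 cycles, then 4.64 and 1.76 at 18 cycles, the last resting on 14 and 3 counts. The 3 groups did not overlap. The fall from 14 to 18 cycles passed in edgeR (log2 fold change -2.25, standard error 0.44, adjusted p = 0.00258, n = 2) but was lost without replicate 1 (adjusted p = 0.0178) or replicate 2 (adjusted p = 0.0182) at 14 cycles, and with ERCC size factors the value was 0.07 (adjusted p = 0.929). From 10 to 18 cycles it was -1.37 (0.44, adjusted p = 0.0334). The fractions had 3.73 and 1.95 CPM (1/2), 10.4 and 11.7 (1/4), and 9.12 and 5.88 (1/8), and no fraction passed with median ratio size factors. Trpv3 made up 31.8 and 21.9% of its family at 10 cycles and 51.6 and 53.3% at 14 cycles, with Trpv2 at 2.83 ± 1.01 CPM per kb over these 4 oocytes, and Trpv5 had 0 counts in all libraries.

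Cacna1h encodes the pore of the T-type channel CaV3.2 (ENSMUSG00000024112, chromosome 17 from 25374285 to 25433783, minus strand). It had 79.5 and 51.7 CPM at 10 cycles, 48.9 and 64.0 at 14 cycles, against 114 and 125 at 18 cycles. The fractions had 71.1 and 96.98 CPM (1/2), 152 and 83.6 (1/4), and 61.6 and 45.8 (1/8). The whole oocytes at 18 cycles exceeded all those at 10 and 14 cycles and both libraries of 1/8, and the libraries of 1/4 differed most from each other. Of the oocytes at 10 and at 14 cycles, the one with the higher Cacna1h was in each case the one with the higher sum of granulosa markers. The order was the same in 1/8 and the opposite at 18 cycles, in 1/2 and in 1/4, and the part of those cells in its level was not tested.

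The log2 fold change of Cacna1h was 1.14 (standard error 0.25, edgeR adjusted p = 0.00506, n = 2) at 18 against 10 cycles and 1.38 (0.25, adjusted p = 0.00173) against 14 cycles. The call against 10 cycles was lost without replicate 1 (adjusted p = 0.011) or replicate 2 (adjusted p = 0.0526) at 10 cycles and without replicate 2 at 18 cycles (adjusted p = 0.0188), and the call against 14 cycles without replicate 1 at 14 cycles (adjusted p = 0.0264). In 1/8 it fell against whole oocytes by 1.34 on the log2 scale (0.34, adjusted p = 0.00548). This call did not hold when either whole oocyte (adjusted p = 0.0155 without replicate 1 and 0.0346 without replicate 2) or either library of 1/8 (adjusted p = 0.0163 and 0.0522) was left out. With the whole oocytes at 10 cycles as the reference, chosen after seeing the data, Cacna1h in 1/8 was at -0.21 (adjusted p = 0.83). Between 1/8 and 1/4 the change of -1.19 (0.34) missed the threshold in edgeR (adjusted p = 0.0231) and passed in DESeq2 (adjusted p = 0.00996). Cacna1h held 80.3 ± 2.03% of the level of the T-type pore genes, with Cacna1i at 1.45 ± 0.188 CPM per kb and Cacna1g at 0.0615 ± 0.0333.

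Stim1 encodes the sensor of calcium in the endoplasmic reticulum that opens store-operated channels (ENSMUSG00000030987, chromosome 7, plus strand). It was the least abundant of the 9 genes, with 46 and 54 counts at 10 cycles, 85 and 159 at 14 cycles, then 12 and 0 at 18 cycles. In the fractions there were 2 and 0 counts (1/2), 11 and 30 (1/4), and 29 and 5 (1/8). A count of 0 allowed up to 1.76 CPM in the whole oocyte and up to 0.834 CPM in 1/2 (3 counts), a limit that covers counting error alone because copies made by PCR were counted as reads. The oocyte without a count was thus below the lowest value at 10 cycles, 3.966 CPM, but the other at 18 cycles, with 3.977 CPM, lay within the range at 10 cycles. No comparison with median ratio size factors passed in edgeR, and the largest fitted difference, between 1/4 and 1/2, rested on 11 and 30 counts against 2 and 0 and had an adjusted p of 0.241. The other sensor gene, Stim2, was at 10.4 ± 1.03 CPM per kb, and Stim1 made up 6.001 ± 2.03% of their sum at 10 and 14 cycles (12.7% with the length of the longest transcript and 11.4% without a length).

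Orai1 encodes the pore of the store-operated channel (ENSMUSG00000049686, chromosome 5 from 123015074 to 123030456, plus strand). Its abundance was 157 and 127 CPM at 10 cycles, 175 and 171 at 14 cycles, against 748 and 583 at 18 cycles. The fractions had 552 and 449 CPM (1/2), 641 and 608 (1/4), and 243 and 139 (1/8). All libraries of whole, 1/2 and 1/4 oocytes at 18 cycles were above every oocyte at 10 and 14 cycles, while of the libraries of 1/8 one lay within the range of those oocytes and one above it. Orai1 had the largest fitted rise of the 9 genes, with a log2 fold change of 2.49 (standard error 0.20, edgeR adjusted p = 5.4e-05, n = 2) at 18 against 10 cycles and 2.24 (0.20, adjusted p = 6.44e-05) against 14 cycles. Both calls were kept in all 6 fits that left out 1 oocyte, and with ERCC size factors the rise was 4.78 (adjusted p = 6.61e-08) against 10 cycles.

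In 1/8, Orai1 fell against whole oocytes by 1.99 on the log2 scale (standard error 0.30, edgeR adjusted p = 8.63e-05, n = 2) and against 1/4 by 1.76 (0.30, adjusted p = 0.000732). The call against whole oocytes was kept in all 8 fits that left out 1 library. The call against 1/4 was lost without replicate 1 of 1/4 (adjusted p = 0.0137) or replicate 2 of 1/8 (adjusted p = 0.0203). With the whole oocytes at 10 cycles as the reference, an alternative chosen after seeing the data, Orai1 in 1/8 was at 0.50 (adjusted p = 0.417), in 1/2 at 2.06 (adjusted p = 9.64e-06) and in 1/4 at 2.26 (adjusted p = 1.01e-05). Orai1 made up 97.4 ± 1.17% of its family per kilobase at 10 and 14 cycles, with Orai3 at 1.76 ± 0.509 CPM per kb and Orai2 at no more than 2 counts in a library.

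Camk2g encodes the gamma isoform of calmodulin-dependent kinase II, the effector that drives exit from meiosis at egg activation (ENSMUSG00000021820, chromosome 14, minus strand). It had 512 and 467 CPM at 10 cycles, 555 and 593 at 14 cycles, then 845 and 562 at 18 cycles. One oocyte at 18 cycles was above all others and the other lay within the range at 14 cycles. The log2 fold change of 18 against 10 cycles, 0.78 (standard error 0.21), missed the threshold in edgeR (adjusted p = 0.0133), and that against 14 cycles was 0.58 (0.20, adjusted p = 0.0467). Camk2g passed against 10 cycles in DESeq2 (adjusted p = 0.000738), without the filter on low counts (adjusted p = 0.00273) and with all 12 libraries in 1 fit (adjusted p = 0.00946), and without replicate 2 at 18 cycles it passed against 10 (adjusted p = 0.0017) and 14 cycles (adjusted p = 0.00437). In the fractions it ranged from 524 to 730 CPM and the log2 fold changes against whole oocytes were 0.00, -0.27 and -0.41 (standard error 0.27 each), without a call. Camk2g held from 99.65 to 99.97% of the level of the 4 kinase II genes in the 12 libraries, and Camk2a, Camk2b and Camk2d did not exceed 30 counts.

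**Figure D2:**
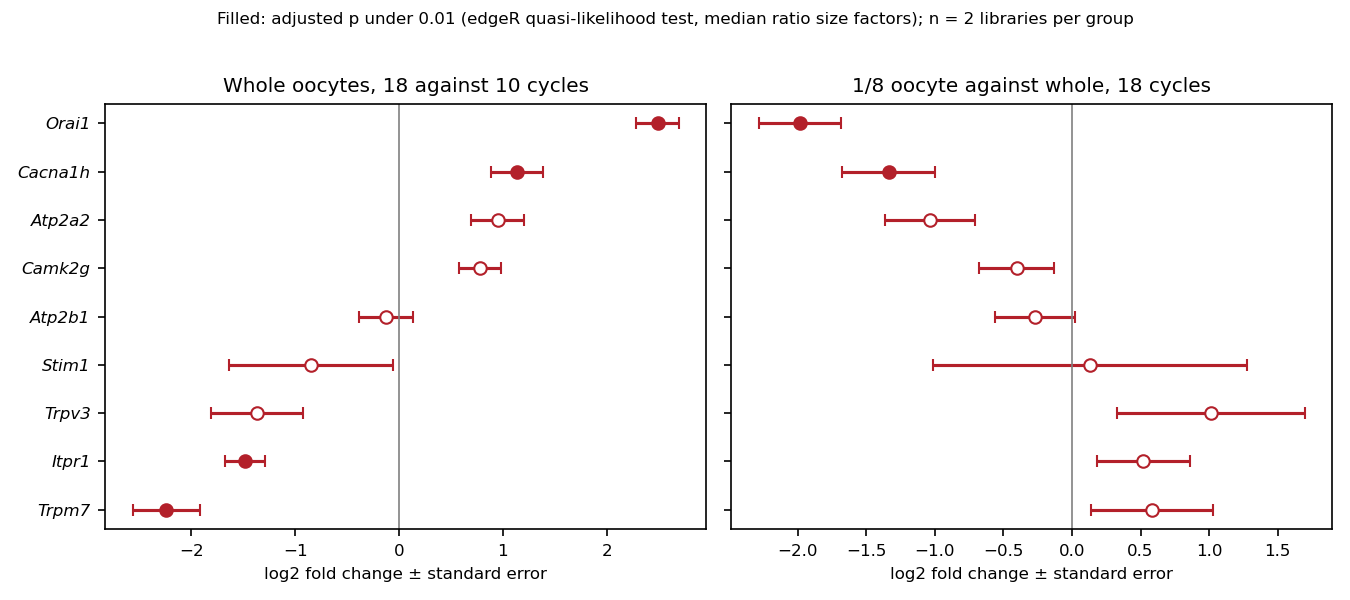
Log2 fold change of the 9 genes (points) with its standard error (bars), for whole oocytes at 18 against 10 cycles (left) and for 1/8 against whole oocytes at 18 cycles (right), from edgeR with median ratio size factors and 2 libraries per group; filled points had an adjusted p under 0.01. Orai1 (2.49 and -1.99) and Cacna1h (1.14 and -1.34) were the filled points in both panels, which share the whole oocytes at 18 cycles, and the falls of Itpr1 and Trpm7 on the left turned to 0.76 and 0.10 with ERCC size factors.

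With ERCC size factors, which count a gene against the added RNA, nearly all 9 genes were lower in the fractions than in whole oocytes at 18 cycles. In 1/2 there were 8 lower genes (52.0% of all genes), with Trpv3 short of the threshold in edgeR (adjusted p = 0.0219). In 1/4 there were 7 (69.7% of all genes), without Stim1 (adjusted p = 0.0897) and Trpv3 (adjusted p = 0.164). In 1/8 all 9 were lower (87.5% of all genes). Their median log2 fold changes were -2.38, -2.80 and -5.15, near those of all genes at -1.997, -2.69 and -4.92. A fall on this scale is set by the dilution itself. The medians of all genes fell further than dilution to 1/2, 1/4 and 1/8 would give. Whole oocytes at 18 cycles had 1873 and 1158 gene counts per ERCC count. Those at 10 cycles had 323 and 360, and the libraries of 1/2 had 439 and 344. The cause was not tested.

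Counts per 1000 ERCC counts showed the same steps in single genes. At 18 cycles Camk2g had 1117 ± 659 in whole oocytes, then 280 ± 41.0 (1/2), 123 ± 4.53 (1/4) and 29.1 ± 6.70 (1/8), as mean and SD of 2 libraries. Atp2b1 had 250 ± 17.3, 52.8 ± 1.47, 31.3 ± 4.13 and 7.92 ± 0.428. Orai1 had 1038 ± 513, 198 ± 62.0, 121 ± 22.4 and 9.22 ± 3.89, and the step from 1/4 to 1/8 was its largest between fractions. Relative to the median of all genes with ERCC size factors, Orai1 was at -0.43, -0.29 and -2.04 in 1/2, 1/4 and 1/8 on the log2 scale, and Itpr1 at -0.13, 0.46 and 0.47.

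The whole oocytes used as reference had only 1611 and 1474 ERCC counts, and several of these calls depended on 1 library. In every fit named in this paragraph, fewer of all genes passed than in edgeR with all 8 libraries. The losses were thus not confined to the calcium genes. Without replicate 1 of the whole oocytes, the median log2 fold change of all genes in 1/2 was -1.39 in place of -1.997. Without replicate 1 of the whole oocytes, 4 genes remained called in 1/2, and Camk2g (adjusted p = 0.0411), Trpm7 (0.0352) and Itpr1 (0.0168) no longer passed in edgeR. Without replicate 2 of 1/2, 4 were called as well, with Camk2g (adjusted p = 0.0208), Orai1 (0.0129), Itpr1 (0.0107) and Stim1 (0.0495) lost, and without replicate 1 of 1/2 Trpm7 was lost (adjusted p = 0.0115). The call of Trpm7 in 1/4 was lost without replicate 1 of the whole oocytes (adjusted p = 0.352) or either library of 1/4 (adjusted p = 0.0298 and 0.0947), and in DESeq2 (adjusted p = 0.0108), and that of Itpr1 without replicate 2 of 1/4 (adjusted p = 0.0164). Trpv3 in 1/8 was lost without replicate 1 of the whole oocytes (adjusted p = 0.0563). The calls of Stim1 in 1/2 and 1/8 rested on the 12 counts of that same oocyte, and without it the fitted values turned to 5.45 (adjusted p = 0.712) and 5.62 (adjusted p = 0.648).

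The reference group also mattered. Whole oocytes at 10 cycles had 50.8 and 45.8 Orai1 counts per 1000 ERCC counts, against 1400 and 675 at 18 cycles. With the oocytes at 10 cycles as the reference and ERCC size factors, an alternative chosen after seeing the data, Orai1 was higher in 1/2 (log2 fold change 2.28, edgeR adjusted p = 0.00027) and in 1/4 (1.63, adjusted p = 0.00474), and lower in 1/8 (-2.27, adjusted p = 1.15e-05), where the median of all genes was -2.82. Itpr1 and Trpm7 were lower in every fraction on that scale, as were 384, 1399 and 13401 of 18041 genes in 1/2, 1/4 and 1/8, and in 1/8 all 9 calcium genes were. Camk2g, Cacna1h and Atp2a2 in 1/2, and Cacna1h in 1/4, had a positive value on that scale without passing.

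The GC content of the longest annotated transcript differed among the 4 genes called at 18 against 10 cycles. Orai1 had 58.6% GC (percentile 93.0 of 13927 tested protein-coding genes) and a length of 1875 bases, and Cacna1h had 59.95% and 8230 bases. Trpm7 had 40.1% (percentile 6.58) and 7107 bases, and Itpr1 had 49.5% (percentile 50.2) and 9870 bases. The genes that rose were thus GC-rich, one short and one long, and of the genes that fell one was GC-poor and the other lay in the middle.

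The median log2 fold change of tested protein-coding genes at 18 against 10 cycles was -0.72 in the tertile with the lowest GC content, -0.25 in the middle and 0.56 in the highest. In 1/8 against whole oocytes at 18 cycles the order was opposite, with 0.52, -0.01 and -0.74, and these comparisons share the whole oocytes at 18 cycles. Among GC-rich and short transcripts the quartiles at 18 against 10 cycles were -0.51 and 1.74, so Orai1 at 2.49 was above the upper one. Among GC-rich and long ones they were -0.55 and 0.93, with Cacna1h at 1.14 above. Trpm7 at -2.24 was below the lower quartile of GC-poor and long transcripts, -1.49, and Itpr1 at -1.48 below that of long transcripts with middle GC content, -1.13. In narrower bins by GC content alone, Cacna1h was not unusual, since genes from 58 to 62% GC had a median of 1.09 and quartiles of 0.15 and 1.85, and Orai1, in the same bin, was above the upper one. Trpm7 was below the lower quartile of its bin (-1.86) and Itpr1 below that of its bin (-1.33). At 14 against 10 cycles the medians of the GC tertiles were -0.01, 0.00 and 0.02. The part of base composition in the changes of single genes was not tested.

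**Figure D3:**
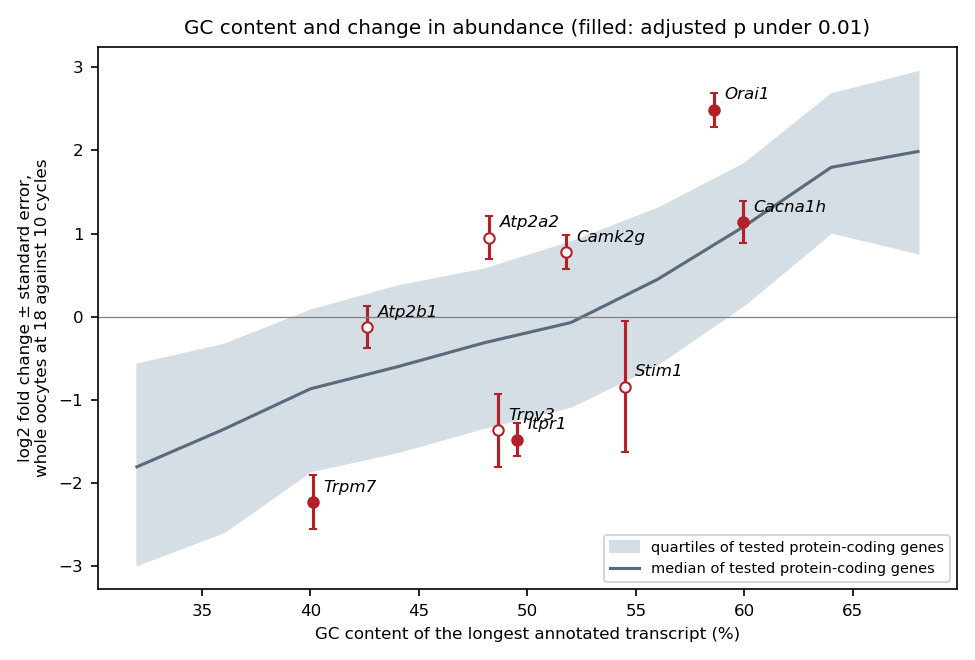
GC content of the longest annotated transcript (horizontal axis, %) against the log2 fold change of whole oocytes at 18 against 10 cycles (vertical axis) for the 9 genes, with standard errors; filled points had an adjusted p under 0.01 in edgeR with median ratio size factors. The line and band give the median and quartiles of tested protein-coding genes in GC bins; Orai1 (2.49 at 58.6% GC) lay above the band and Trpm7 (-2.24 at 40.1%) below it, and with ERCC size factors Trpm7 was at 0.10.

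Exons of Itpr1, Atp2a2, Cacna1h and Orai1 overlap exons of other genes on the opposite strand. The shared stretch was 158 bases with Tpsg1 for Cacna1h, 108 and 181 bases with Gm44040 and Gm44101 for Itpr1, 83 bases with Gm43361 for Atp2a2, and 7 bases with Gm2479 for Orai1. The paper's methods name HTSeq with default parameters, but in a version other than the one named for the deposited counts. Whether counting used the strand was not settled from the sources used here, and reads in these stretches may be uncertain.

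For each gene with at least 20 counts in every library, the 2 protein-coding genes closest in pattern over the 12 libraries were found among 6590 genes, by the root mean square difference of centred log2(CPM + 1). Orai1 was closest to Map1lc3a and Zar1 (0.197 each), against a median difference of 1.03 to all genes. The closest genes were 4932438A13Rik (0.162) and Alms1 (0.185) for Itpr1, Rbfox2 (0.179) and Hnrnpul2 (0.187) for Atp2a2, and Tmem201 (0.189) and Tmem184b (0.193) for Cacna1h. Atp2b1 was closest to Smarca2 (0.130) and Sipa1l1 (0.144), and Camk2g to Rraga (0.127) and Baiap2l1 (0.129). Trpm7 had no neighbour as close, with Ogt at 0.376 and the oocyte gene Padi6 at 0.469, against a median of 1.26. Trpv3 and Stim1 had too few counts for this measure.

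Further genes of the pathway were taken from 9 lists with 129 genes, of which 128 were found and 103 passed the filter for whole oocytes. At 18 against 10 cycles, 17 of the 103 were higher and 12 lower, beside 12.3% and 10.8% of all genes, and at 14 against 10 cycles 0 passed in edgeR (0.0% of all genes). Each list count below is to be read against these shares. In 1/8 against whole oocytes at 18 cycles, 11 of 91 genes were higher and 7 lower, beside 7.06% and 8.69% of all genes, while 0 passed in 1/2 and 0 in 1/4 (0.122% and 0.46% of all genes). The median of all genes, given above, was -0.29 at 18 against 10 cycles and 0.03 in 1/8.

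Among 9 tested genes around calcium release from the endoplasmic reticulum, 2 were higher (Erp44 and Ahcyl1) and 1 lower (Itpr2) at 18 against 10 cycles (12.3% and 10.8% of all genes), with a list median of 0.22. Ahcyl1, which encodes the receptor regulator IRBIT, had a log2 fold change of 1.44 (standard error 0.22, edgeR adjusted p = 0.000608) and fell in 1/8 by 1.47 (0.33, adjusted p = 0.00226). Among 5 pumps and exchangers, Atp2c2 was higher and Atp2c1 lower (list median -1.42, beside the same 12.3% and 10.8%); these genes encode calcium and manganese pumps of the secretory pathway. Atp2c2 was the most abundant gene of that list at 61.9 ± 3.67 CPM per kb, about the level of Atp2a2, and Atp2c1 had 44.3 ± 1.78. The fall of Atp2c1 was 1.42 (0.22, adjusted p = 0.000682), and in 1/8 it was higher than in whole oocytes by 1.14 (0.28, adjusted p = 0.00479).

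Of 8 genes of store-operated entry, 3 were higher (Saraf, Tmem110 and Tmem203) and 0 lower, beside 12.3% and 10.8% of all genes, with a list median of 0.44. Saraf, which encodes a regulator that inactivates store-operated entry, was at 65.5 ± 2.90 CPM per kb and rose by 1.07 (standard error 0.18, edgeR adjusted p = 0.00135), and Stim2 was not called (-0.20, 0.22). In 1/8, 0 of 6 genes of this list passed. Of 14 other entry channel genes 1 was higher (Cacnb3) and 1 lower (Cacna2d3), no more than the 12.3% and 10.8% of all genes, with a median of -0.99. Cacnb3, a beta subunit of voltage-gated channels, rose by 1.42 (0.28, adjusted p = 0.00263) and fell in 1/8 by 2.18 (0.43, adjusted p = 0.000706), the same directions as Cacna1h in comparisons that share the oocytes at 18 cycles.

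Of 14 genes for phospholipases C and Gq signalling, 1 was higher and 3 lower at 18 against 10 cycles (median -0.27), beside 12.3% and 10.8% of all genes. Plcz1, the phospholipase of sperm, had 0 counts. Plce1 was the most abundant of them at 17.8 ± 1.23 CPM per kb and fell by 1.46 (standard error 0.22, edgeR adjusted p = 0.0006), and Plcb1 fell by 2.38 (0.29, adjusted p = 0.000214), while Gna11, a G protein alpha subunit, rose by 2.32 (0.27, adjusted p = 0.000177). In 1/8 Gna11 fell by 2.11 (0.35, adjusted p = 0.000181) and Plcb1 was higher by 1.96 (0.45, adjusted p = 0.0025).

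Of 20 genes for calmodulin and its targets, 1 was higher and 2 lower (median 0.22), near or below the 12.3% and 10.8% of all genes. The cell-cycle kinase gene Wee2 (162 ± 7.34 CPM per kb) and Calm2 (134 ± 8.95) each exceeded Camk2g in level. Calm3 rose by 1.71 on the log2 scale (standard error 0.32, edgeR adjusted p = 0.00205), and Calm2 fell by 1.34 (0.22, adjusted p = 0.00109). Wee2, whose product is a substrate of the kinase, fell by 1.43 (0.26, adjusted p = 0.00184). In 1/8, Calm3 and Prkcd were lower and Calm2 and Wee2 higher than in whole oocytes.

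Of 10 calcium-binding genes of the endoplasmic reticulum and secretory pathway, 1 was higher (Sdf4) and 0 lower (median -0.16), near or below the 12.3% and 10.8% of all genes, and Hspa5 (96.8 ± 6.75 CPM per kb), Calr (90.2 ± 5.24) and Hsp90b1 (86.0 ± 16.6) were not called. Rcn2 was the gene of this list called in 1/8, higher by 1.22 (standard error 0.29, edgeR adjusted p = 0.00328). Of 11 genes for mitochondrial calcium uptake 5 were higher and 1 lower (median 0.83), beside 12.3% and 10.8% of all genes. Smdt1 and Vdac1, both among the higher genes, rose by 1.46 (0.21, adjusted p = 0.000523) and 1.22 (0.20, adjusted p = 0.000907), and Mcub and Mcur1 rose as well, while Vdac2 fell by 1.69 (0.30, adjusted p = 0.0015) and the pore gene Mcu was not called (-0.65, 0.23, adjusted p = 0.0495). In 1/8, 2 genes of this list were higher (Vdac2, and Mcu by 1.07, adjusted p = 0.00638) and 1 lower (Mcur1), beside 7.06% and 8.69% of all genes.

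Of 12 genes for cortical granule exocytosis, the process that calcium triggers at the egg surface, 2 were higher and 3 lower (median -0.89), beside 12.3% and 10.8% of all genes. Astl, which encodes the granule protease ovastacin, was the most abundant at 350 ± 60.5 CPM per kb and was not called (-1.21, standard error 0.39, edgeR adjusted p = 0.032). The called genes included Syt1, which fell by 2.53 (0.38, adjusted p = 0.000613), and Nsf, which fell by 1.86 (0.22, adjusted p = 0.000174). Napa, also called, rose by 2.25 (0.34, adjusted p = 0.000679). In 1/8 Napa fell by 2.34 (0.38, adjusted p = 0.000171) and Nsf was higher by 1.40 (0.28, adjusted p = 0.001).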

How the data were processed

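The authors deposited raw counts for genes and ERCC molecules of 12 libraries, with no normalization applied. Molecular identifiers were not used in these libraries. The submitters' processing notes name cutadapt 2.5, STAR 2.7.2a, SAMtools 1.9, HTSeq 0.9.1 and the build mm10; the annotation release was not given in the sources used here. Reads on no feature (6.90 to 10.8% per library) and ambiguous reads (2.64 to 4.54%) were left out. Counts on genes ranged from 1702062 to 13806199, and 3 counts corresponded to 0.217 to 1.76 CPM. Symbols, coordinates, exon lengths and GC content came from GENCODE mouse release 21, which lists 55480 of the 55573 genes.

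CPM used the counts on genes. Tests used edgeR 4.0.16 in R 4.3.3 (quasi-likelihood, Benjamini-Hochberg over all genes, threshold 0.01, at least 5 counts in at least 2 libraries). The 6 whole oocytes formed one fit and the 8 libraries at 18 cycles another, without covariates; size factors were the median ratio over genes or over ERCC molecules. Alternatives were DESeq2 1.42.0, TMM, total ERCC counts, ERCC size factors for whole oocytes, no filter, a stricter filter (10 counts or more in each library), all 12 libraries in one fit, whole oocytes at 10 cycles as the reference for the fractions (chosen after seeing the data), the replicate number as a block, and leaving out each library. The fitting script was tested on simulated data, where many genes given a change were not called, so a gene not called here may have changed.

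The 9 genes and the lists were chosen with earlier results of these data known. Besides the 9 genes and their paralogues, the rule named from each list the 3 genes with the highest level per kilobase and up to 2 called genes with the largest change in 18 against 10 cycles and in 1/8 against whole oocytes, with a mean of at least 50 normalized counts and groups that did not overlap. Not every gene this rule selects is named in the report. The 2 nearest genes in pattern were named by the measure given in the report.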

Additional observations from a re-analysis of the deposited data

How the results depend on the processing

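Of the 9 genes, the number called changed by over 1.5 times under few alternatives. On leaving out 1 library, it ranged from 3 to 7 for 18 against 14 cycles, from 1 to 2 for 1/8 against whole oocytes, from 0 to 1 for 1/8 against 1/4, and with ERCC size factors from 4 to 9 for 1/2 against whole oocytes. A group reduced to 1 library was assumed to vary like the others. The number of all genes called varied across these fits too. DESeq2 and the fit without a filter each called 2 genes in 1/8 against 1/4 (Orai1 and Cacna1h). Of all genes, DESeq2 called 384 higher and 726 lower of 14788 there. The fit without a filter called 383 and 833 of 24294, and the edgeR test with the filter 228 and 506 of 14788. With whole oocytes at 10 cycles as the reference, chosen after seeing the data, 3, 1 and 0 genes were called in 1/2, 1/4 and 1/8 (of all 18041 genes, 1678 higher and 1242 lower, 1050 and 752, and 0 and 0), and with ERCC size factors 3 in 1/2 (1181 and 384) and 3 in 1/4 (157 and 1399). Signs turned as follows, and the cause was not tested. With ERCC size factors for the whole oocytes, Itpr1 went to 0.76 and Trpm7 to 0.10 against 10 cycles, and Itpr1 to 0.90 and Trpv3 to 0.072 against 14 cycles. With the reference at 10 cycles, Orai1 went to 0.50 in 1/8, and with ERCC size factors also Camk2g to 0.97, Cacna1h to 0.77, Atp2a2 to 0.64 and Orai1 to 2.28 in 1/2, and Cacna1h to 0.39 and Orai1 to 1.63 in 1/4. On leaving out 1 library, Stim1 with ERCC size factors ranged from -10.59 to 5.45 in 1/2 and from -5.97 to 5.62 in 1/8.

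Same-numbered libraries did not deviate together (correlations from -0.14 to 0.14 across genes, which are not independent replicates), so the numbers were not taken to pair them. A replicate block called 5 genes at 18 against 10 cycles and 3 in 1/8 against whole oocytes, adding Atp2a2 in both, and changed no other call of the 9 genes. It also called more of all genes. At 18 against 10 cycles 2272 of 17532 were higher and 2107 lower, in place of 2155 and 1898. In 1/8 against whole oocytes 1165 of 14788 were higher and 1476 lower, in place of 1044 and 1285. Of the log2 fold changes of called genes refitted under an alternative, 458 kept direction and call, 35 kept direction and lost the call, and 13 turned direction, 11 of them without a call and 2 (Orai1 in 1/2 and 1/4 with the reference at 10 cycles) with one. With the length of the longest transcript and with no length, the family share of Itpr1 was 33.8% and 30.3%, of Atp2b1 85.1% and 85.7%, of Stim1 12.7% and 11.4% and of Camk2g 99.6% and 99.4%, and that of Cacna1h 82.6% with the longest transcript. Low counts limit Stim1 and Trpv3 most.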
